A study of Mus musculus with 8 samples.

Results

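The genes described here encode the chaperones of the endoplasmic reticulum (ER) and the unfolded protein response, the signalling that adjusts this compartment to its load of new protein. There are 38 of them, chosen by name from knowledge of the response and with earlier results of these data known. All 38 were measured among 18193 genes on the array. RNA came from the distal trachea and carina of female C57Bl/6 mice, 4 old mice of 14 months and 4 young mice of 2 months, with 1 mouse per Affymetrix Mouse Genome 430 2.0 array. No treatment or altered allele is given for either age, and which of the study's suppliers each mouse came from is not given. A probe set is a group of short probes against a transcript or several related transcripts. The deposited signal of each probe set was taken to log2, and each gene was read from the brightest probe set that carries its symbol alone. Those 38 probe sets were the brightest of 90 for these genes.

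Proteins bound for secretion enter the ER through the translocon, fold with the help of chaperones and disulfide isomerases, and are pulled back to the cytosol for degradation when they fail. When unfolded protein builds up, the sensor kinase Ern1 splices the mRNA of the transcription factor Xbp1, and Atf6 is cut free from the membrane, and both raise chaperone and degradation genes. A further sensor kinase, Eif2ak3, slows translation and favours the factor Atf4, whose targets include Ddit3 and genes of amino acid supply, and prolonged activity of this stress arm is linked to cell death. Plasma cells carry a large ER for antibody secretion and depend on Xbp1, and secretory cells of the airway also use this machinery.

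The chaperone arm genes are known for the ER stress response element (ERSE), a promoter sequence that nuclear factor Y and the Atf6 and Xbp1 proteins read together. RefSeq promoters of the GRCm38.p6 assembly were given for 32 of the 38 genes, not for Derl1, Sec61a1, Atf6, Mzb1, Hyou1 and Manf. The 250 bases before each start were searched on both strands for CCAAT followed, after any 9 bases, by CCACG. These letters occurred in 35 of 27025 gene promoters (0.13%), in 9 of the 23 chaperone arm promoters (39.1%) and in 0 of the 6 stress arm promoters. A match is a description of the letters and shows no binding. The 10 matches in these 9 genes are printed because they are a sequence feature that these chaperone arm genes share. Each line gives 6 bases on either side of the match, 5′ to 3′ on the strand on which the motif reads CCAAT first, with CCAAT and CCACG in capitals.
Hspa5, chr2:34772019-34772049, plus strand: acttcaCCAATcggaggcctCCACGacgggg
Creld2, chr15:88819514-88819544, minus strand: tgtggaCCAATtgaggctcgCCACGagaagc
Dnajc3, chr14:118937821-118937851, plus strand: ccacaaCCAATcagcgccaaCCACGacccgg
Hsp90b1, chr10:86705632-86705662, minus strand: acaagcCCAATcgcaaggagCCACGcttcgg
Hsp90b1, chr10:86705527-86705557, plus strand: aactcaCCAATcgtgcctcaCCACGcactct
Calr, chr8:84847069-84847099, plus strand: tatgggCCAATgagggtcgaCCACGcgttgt
Canx, chr11:50325794-50325824, minus strand: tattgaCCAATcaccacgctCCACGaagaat
Pdia6, chr12:17266485-17266515, plus strand: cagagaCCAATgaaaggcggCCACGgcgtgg
Derl3, chr10:75893236-75893266, minus strand: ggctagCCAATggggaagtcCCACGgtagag
Syvn1, chr19:6046526-6046556, plus strand: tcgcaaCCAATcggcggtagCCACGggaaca

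The matches lay between 212 and 26 bases before the start, and Hsp90b1 held 1 in each direction. The whole window of Hspa5, the gene whose age difference passed the test below, is printed with the parts of its match in capitals, on the strand of the gene.
Hspa5, chr2:34771840-34772089, plus strand: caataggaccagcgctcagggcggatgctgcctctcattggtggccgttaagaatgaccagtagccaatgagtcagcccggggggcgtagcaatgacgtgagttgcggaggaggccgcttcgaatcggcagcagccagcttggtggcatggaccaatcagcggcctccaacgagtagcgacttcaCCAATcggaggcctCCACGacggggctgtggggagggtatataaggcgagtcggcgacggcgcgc

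The related element ERSE-II, ATTGG and CCACG with 1 base between them, was found in Herpud1 alone among the 32 genes and in 0.037% of all promoters. Its letters hold CCACG, as ERSE does, but with the reverse complement of CCAAT in place of CCAAT, and at another spacing. TGACGTGG, a site named for the unfolded protein response (UPRE) that also holds CCACG on the opposite strand, was in 0 of the 32 and in 0.603% of all promoters, and this says only that these letters are not in the windows. TGATGNAA, the element read by Atf4 and its partners (CARE), was in 3.91% of all promoters. It was found in the stress arm genes Asns and Chac1 and also in Herpud1. Asns encodes asparagine synthetase, and its window is printed as the stress arm counterpart, on the strand of the gene, with the fixed letters of the CARE match in capitals.
Asns, chr6:7693210-7693459, minus strand: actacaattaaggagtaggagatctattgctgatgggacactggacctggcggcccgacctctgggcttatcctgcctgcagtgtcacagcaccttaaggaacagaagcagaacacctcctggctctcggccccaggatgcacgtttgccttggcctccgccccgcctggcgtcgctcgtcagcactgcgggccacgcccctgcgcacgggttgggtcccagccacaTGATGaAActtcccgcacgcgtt

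**Figure D1:**
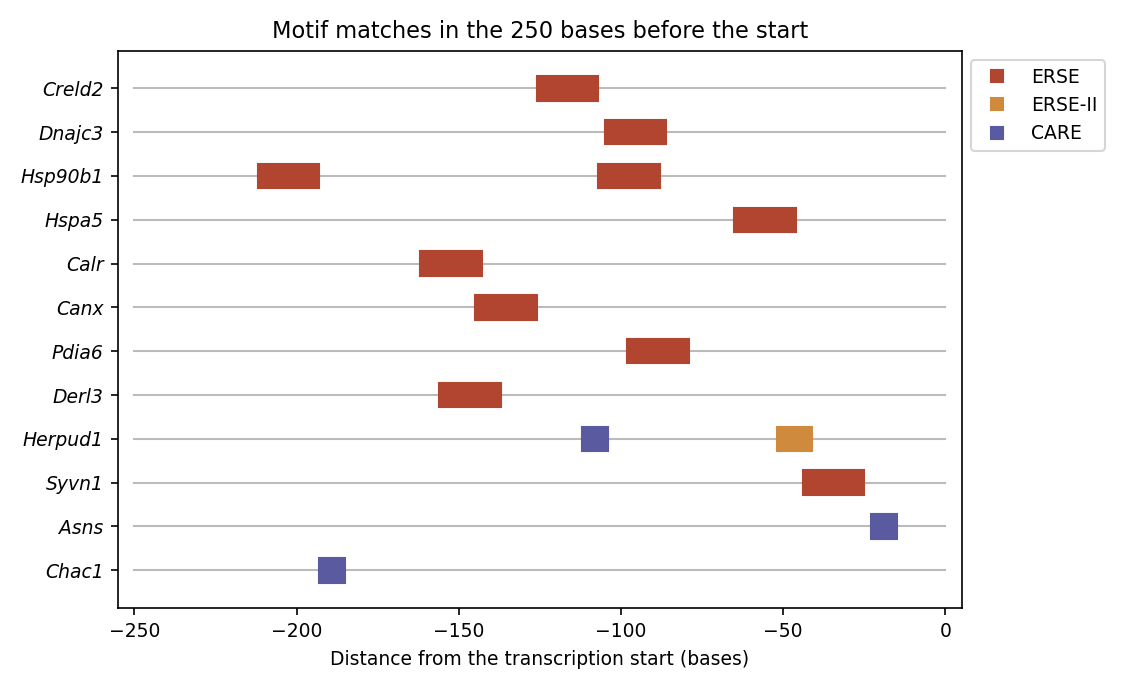
Positions of the ERSE, ERSE-II and CARE letters in the 250 bases before the transcription start of the 12 genes that hold any of them, with the distance from the start in bases on the horizontal axis. ERSE matches lie in chaperone arm genes, and CARE matches lie in Asns, Chac1 and Herpud1.

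Of the 38 genes, 1 rose with age at an adjusted p under 0.05 in limma with Benjamini-Hochberg adjustment over all genes, against 0.368% of all genes. It was Hspa5, which encodes BiP, the main chaperone of the ER lumen. Its signal was 9869, 10165, 9541 and 9251 in old mice 1, 2, 5 and 6 and 7044, 6874, 6523 and 7062 in young mice 3, 4, 7 and 8. The signals of the ages did not overlap. The log2 fold change of old over young mice was 0.50 (standard error 0.065, 95% interval 0.35 to 0.65), a fold of 1.41, with an adjusted p of 0.0310 from limma. The call ended when any single mouse was left out (adjusted p 0.0582 to 0.0917 in limma, log2 fold changes of 0.47 to 0.52). With the mean of the 3 Hspa5 probe sets in place of the brightest, the log2 fold change was 0.32 (adjusted p = 0.137 in limma), since the least bright of them stood at -0.017 while the other two were at 0.50 and 0.48.

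No gene of the 38 was lower at an adjusted p under 0.05 in limma, where 0.181% of all genes were. At an unadjusted p under 0.05, 12 of 38 were higher in old mice (31.6%, against 7.31% of all genes) and 1 was lower (2.63%, against 7.28%). The log2 fold change was above 0 in 33 of 38, against 49% of all genes, and its median was 0.15, against -0.0047 over all genes. All 4 old signals exceeded all 4 young signals in 12 genes (5.02% of all genes), and the reverse held in 1, Sel1l (5.11% of all genes). At the thresholds named in the methods, which are an unadjusted p under 0.05 with more than a 2-fold difference, 1 gene was higher (1.11% of all genes) and 0 were lower (0.588% of all genes). The number higher at an adjusted p was 6 when limma's prior variance followed the signal (trended and robust prior), with Hyou1, Sdf2l1, Manf, Creld2 and Mzb1 beside Hspa5, and Sel1l was then called lower. Calls over all genes in either direction numbered 487 under that setting and 100 without it. In bulk tissue, a change in the number of cells of a type and a change in RNA per cell cannot be told apart, for rises as for falls.

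Of the 28 genes of the chaperone arm, 10 were higher (35.7%, against 7.31% of all genes) and 1 lower (3.57%, against 7.28%) at an unadjusted p under 0.05. A log2 fold change above 0 was seen in 25, with a median of 0.19. Of the 6 genes of the stress arm, 0 passed at an unadjusted p under 0.05 in limma. At the shares over all genes, 0 of 6 is not unusual. In the stress arm 4 genes were above 0 and 2 below, and the median was 0.079. The stress arm median turned to -0.058 when each gene took the mean over its probe sets, where that of the chaperone arm was 0.18. That mean gives dim probe sets full weight. One of Atf4 had mean signals of 7.1 in old and 9.9 in young mice, and one of Ddit3 had 112 and 133. The turn therefore does not show that the arms moved apart. The mean of log2 signal over the chaperone arm, each gene centred on its mean over the 8 mice, was 0.094, 0.13, 0.088 and 0.069 in old mice 1, 2, 5 and 6 and -0.11, -0.16, -0.048 and -0.072 in young mice 3, 4, 7 and 8. The ages did not overlap on this measure. The same mean over the stress arm was 0.017, 0.18, -0.16 and -0.021 in the old and 0.037, -0.13, -0.028 and 0.11 in the young mice, and there the ages overlapped. Chac1, the dimmest gene of the stress arm and the one with the widest spread, weighs heavily on this mean. Its signals ran from 46.2, in old mouse 5, to 140. The mean without Chac1 was not computed. The difference between the 2 arms was not tested.

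**Figure D2:**
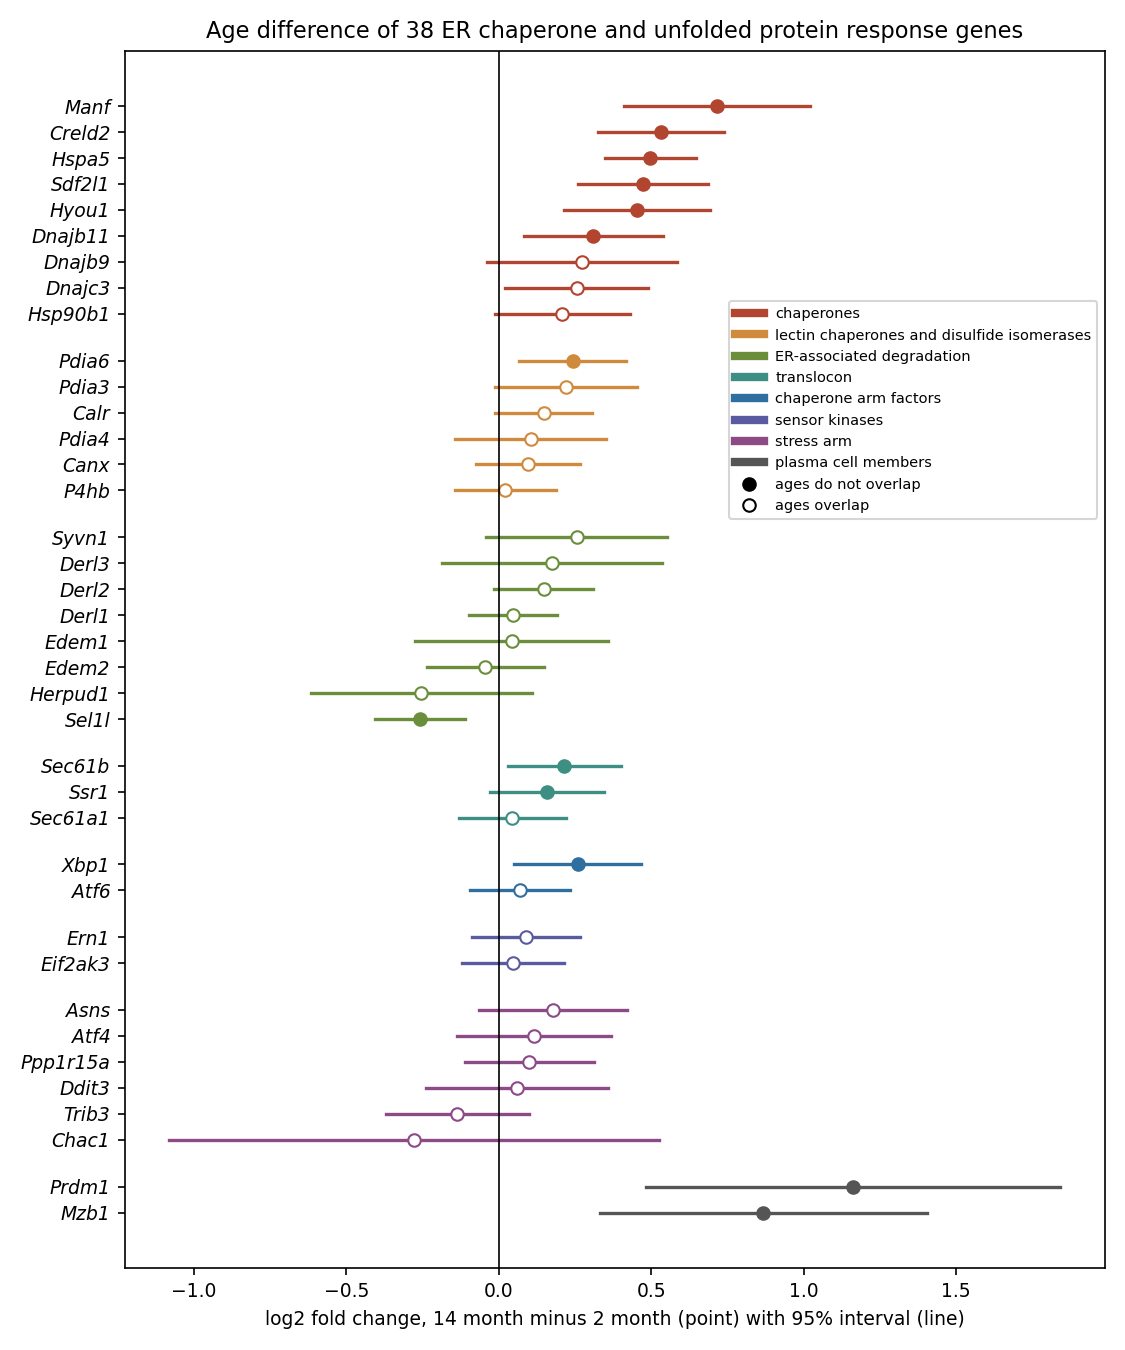
Log2 fold change of old (14 month) over young (2 month) mice for each of the 38 genes, grouped by role, with points for the estimate and lines for the 95% interval. Filled points mark genes whose 4 old and 4 young mice do not overlap, and the 9 chaperones all lie above 0.

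Other gene groups differed between the same mice, and their part in the differences of the 38 genes was not tested. Of 9 plasma cell markers 5 were higher at an unadjusted p under 0.05 and 0 lower, and their summed signal was 19813 to 49116 in old and 1101 to 4863 in young mice. Among their defining markers, Tnfrsf17, a survival receptor of plasma cells, was at 89.3 to 157 in the old and 37.3 to 73.3 in the young. The median signal of an array was 150 to 160. No detection call was given, so expression of Tnfrsf17 in the young mice is not shown. Cytosolic heat shock genes, the chaperones outside the ER, were higher in 14 of 16 at the same threshold, with a median log2 fold change of 0.40 and a summed signal of 98695 to 118547 in old and 64753 to 79478 in young mice. Hspa1a and Hspa1b, the inducible Hsp70 genes, were at 1.85 (adjusted p = 0.0345 in limma) and 1.56 (adjusted p = 0.0286 in limma). Immediate early genes, which also respond to tissue handling, were higher in 8 of 17 at that threshold, with a summed signal of 26280 to 44709 in old and 18473 to 24877 in young mice. The heat shock element, searched as GAA, TTC and GAA with 2 bases between them, was in 0 of the 32 promoters of the ER genes, in 2 of 13 of the heat shock genes and in 0.514% of all promoters. At so low a share over all promoters, 0 of 32 says only that these letters are not in the windows. Most of the heat shock genes lacked them too.

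Among tissue markers, fibroblast and collagen genes were lower in 7 of 17 and higher in 1 at an unadjusted p under 0.05, with a summed signal of 97681 to 111290 in old and 135580 to 154142 in young mice. B cell markers were higher in 6 of 11 (summed signal 1498 to 2352 in old and 1286 to 1567 in young mice), basal cell markers in 4 of 7 (16758 to 20691 and 14097 to 16836), and cartilage markers in 1 of 12, with 3 lower (16441 to 22915 and 13692 to 28766). Secretory markers passed in 0 of 13 and ciliated markers in 0 of 8 at an unadjusted p under 0.05 in limma. The secretory cell gene Scgb1a1, at 25658 to 31083, and the ciliated cell gene Foxj1, at 2000.5 to 3104, had a signal in all mice, as did Krt5, Col2a1 and Acan. Every probe set has a signal above 0, so having one does not by itself show expression.

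Of the 9 chaperones and cofactors, 7 were higher at an unadjusted p under 0.05 (77.8%, against 7.31% of all genes). All 9 had a log2 fold change above 0, and the median was 0.45. Besides Hspa5, the smallest adjusted p belonged to Creld2, a secreted ER protein with disulfide isomerase activity. Its signal was 1859, 2051, 1738 and 1700 in the old and 1195, 1230, 1406 and 1247 in the young mice. All old mice were above all young mice, and the difference was 0.53 on the log2 scale (standard error 0.089, adjusted p = 0.0575 in limma). Manf, a small ER protein that is secreted under stress, had a signal of 3670, 3888, 3256 and 3245 in the old and 1961, 1876, 2700 and 2084 in the young mice. The ages did not overlap, although young mouse 7 stood above the other young mice. The log2 fold change of Manf was 0.72 (standard error 0.13, adjusted p = 0.0683 in limma), a fold of 1.64.

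Sdf2l1, which works with BiP and its J proteins, had a signal of 829, 914, 779 and 904 in the old and 687, 576, 572 and 633 in the young mice. Its log2 fold change was 0.47 (standard error 0.092, adjusted p = 0.0794 in limma), with no overlap. Hyou1, a large Hsp70 relative that exchanges the nucleotide of BiP, had a signal of 2064, 2131, 2342 and 1753 in the old and 1446, 1603, 1579 and 1407 in the young mice. Old mouse 6 was the lowest of its age and still above every young mouse, and the log2 fold change was 0.45 (standard error 0.10, adjusted p = 0.113 in limma). The dimmer Hyou1 probe sets stood at 0.31 and 0.24, and the ages overlapped in both. With the mean of its probe sets Hyou1 was at 0.33 (adjusted p = 0.591 in limma). Dnajb11, a J protein that hands clients to BiP, had a signal of 1101, 1008, 980 and 835 in the old and 830, 817, 746 and 761 in the young mice. Old mouse 6 and young mouse 3 were close to each other, and the log2 fold change was 0.31 (adjusted p = 0.209 in limma).

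Dnajc3, a J protein also known as an inhibitor of Eif2ak3, had a signal of 4519, 4504, 3960 and 4088 in the old and 3302, 3178, 3847 and 4028 in the young mice. The ages overlapped through old mouse 5 and young mouse 8, and the log2 fold change was 0.25 (adjusted p = 0.303 in limma). All 5 Dnajc3 probe sets had log2 fold changes between 0.25 and 0.32. The remaining chaperones did not reach an unadjusted p of 0.05. Dnajb9, a J protein that restrains Ern1, was at 0.27 (adjusted p = 0.403 in limma), and Hsp90b1, the Hsp90 of the ER, at 0.21 (adjusted p = 0.370 in limma). The other Hsp90b1 probe set stood at 0.38 (unadjusted p = 0.0364 in limma) with overlap between ages, and the mean of both was 0.30.

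**Figure D3:**
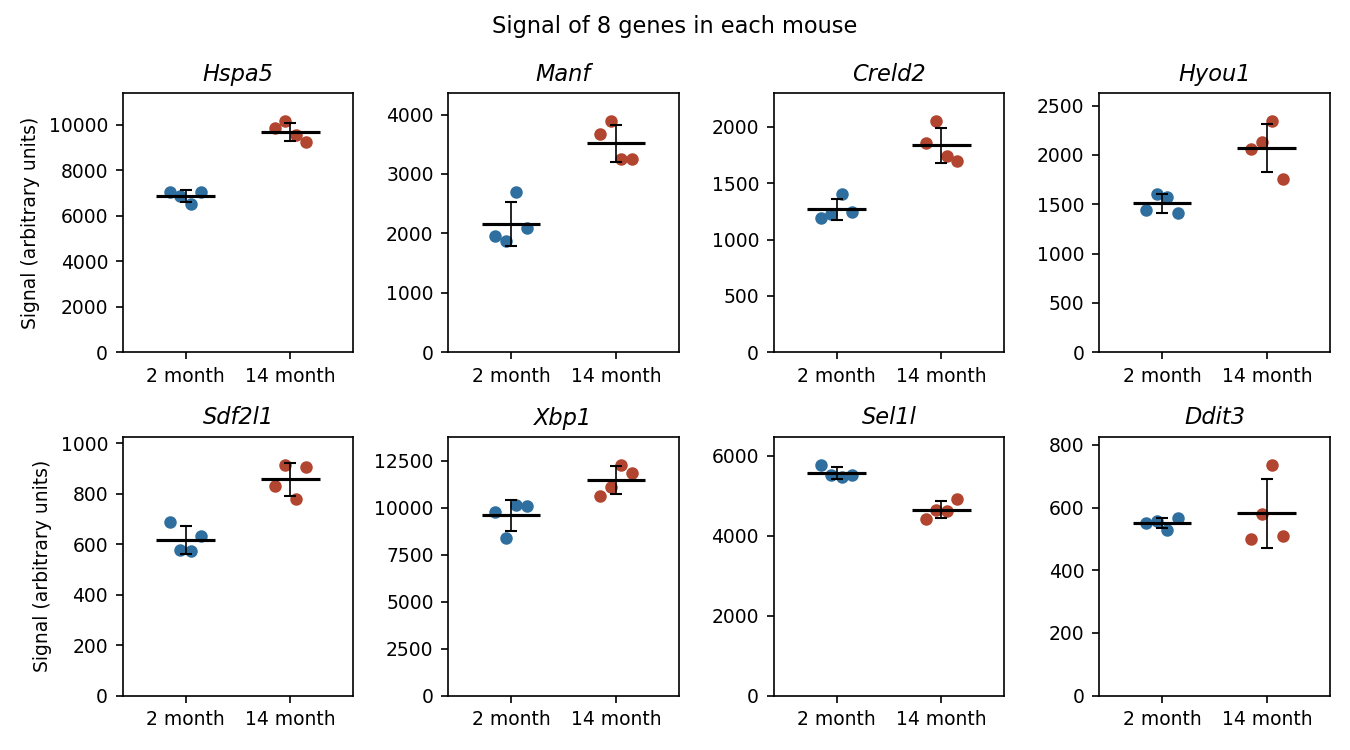
Signal in arbitrary units of 8 genes in each mouse, with points for the 4 young and 4 old mice, a bar for the mean and a whisker for the SD, on axes from 0. The ages do not overlap for Hspa5, Manf, Creld2, Hyou1, Sdf2l1, Xbp1 and Sel1l, which is lower in the old mice, and they overlap for Ddit3.

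The lectin chaperones, which hold glycoproteins, and the disulfide isomerases, which form and shuffle disulfide bonds, had log2 fold changes from 0.02 to 0.24 with a median of 0.13. Of these 6 genes, 1 was higher at an unadjusted p under 0.05 (16.7%, against 7.31% of all genes). At that share, 1 of 6 is not unusual. The gene was Pdia6, an isomerase known to act on Ern1. Its signal was 2393, 2433, 2160 and 2150 in the old and 2041, 1883, 1969 and 1825 in the young mice. The ages did not overlap, and the log2 fold change was 0.24 (adjusted p = 0.207 in limma), or 0.14 with the mean of its probe sets. Pdia3, the isomerase that pairs with the lectin chaperones, was at 0.22, and the lectins Calr and Canx were at 0.15 and 0.10. Without young mouse 4, Canx was at 0.047. Pdia4 was at 0.10 and P4hb, also a subunit of collagen prolyl hydroxylase, at 0.02. Adjusted p-values of these 5 genes ran from 0.365 to 0.927 in limma.

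ER-associated degradation, the removal of misfolded protein, had the only gene among the 38 that lay lower in every old mouse. Sel1l, the adaptor that holds the ubiquitin ligase complex together, had a signal of 4411, 4656, 4614 and 4925 in the old and 5777, 5515, 5459 and 5515 in the young mice. Its log2 fold change was -0.26 (standard error 0.064, adjusted p = 0.130 in limma), and its 5 probe sets lay between -0.26 and -0.18. Syvn1, the ubiquitin ligase that Sel1l binds, was at 0.26 (adjusted p = 0.410 in limma), but at 0.039 in its other probe set, which stands for the gene when _s_at probe sets are left out, and at 0.16 without young mouse 4. Herpud1, a scaffold of the same complex, was at -0.25 (adjusted p = 0.506 in limma), with signals of 3334 to 4455 in the old and 3874 to 5882 in the young mice. The channel proteins Derl1, Derl2 and Derl3 were at 0.05, 0.15 and 0.17, and the mannosidase-like proteins Edem1 and Edem2 at 0.04 and -0.04. The other Edem1 probe set stood at 0.32 with no overlap between ages, and the mean of both was 0.18. Derl3, known from secretory cells such as plasma cells, had signals of 157 to 236 in the old and 147 to 199 in the young mice. The median of the 8 degradation genes was 0.04.

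In the translocon, Sec61b, a small subunit of the channel, had a signal of 5647, 5932, 5822 and 6207 in the old and 4698, 4780, 5429 and 5471 in the young mice. The ages did not overlap, and its log2 fold change was 0.21 (adjusted p = 0.275 in limma). Ssr1, of the translocon-associated complex, had a signal of 3977, 3930, 3916 and 3958 in the old and 3525, 3625, 3130 and 3906 in the young mice. Young mouse 8 came close to the old mice, and the log2 fold change was 0.16 (adjusted p = 0.416 in limma), or 0.055 with the mean of its probe sets. Sec61a1, which forms the pore, was at 0.04.

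Of the transcription factors of the chaperone arm, Xbp1 had a signal of 10605, 11121, 12281 and 11822 in the old and 9756, 8381, 10148 and 10089 in the young mice. No old mouse overlapped with a young mouse, and the log2 fold change was 0.26 (standard error 0.089, 95% interval 0.05 to 0.47, adjusted p = 0.250 in limma). The 4 Xbp1 probe sets lay between 0.09 and 0.30, and splicing of its mRNA was not measured. Atf6 had a signal of 1368, 1272, 1266 and 1402 in the old and 1260, 1185, 1289 and 1323 in the young mice. The ages overlapped, and the log2 fold change was 0.07 (95% interval -0.09 to 0.23, adjusted p = 0.708 in limma). A dimmer Atf6 probe set stood at 0.27 with no overlap.

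The sensor kinases act through their protein activity, and both lay close to 0 in mRNA. Ern1 had a signal of 1502, 1444, 1463 and 1285 in the old and 1285, 1360, 1288 and 1418 in the young mice, with a log2 fold change of 0.09 (adjusted p = 0.654 in limma). Eif2ak3 had a signal of 1020, 891, 944 and 928 in the old and 867, 943, 890 and 958 in the young mice, with a log2 fold change of 0.05 (adjusted p = 0.813 in limma). The ages overlapped for both genes.

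In the stress arm, Atf4 had a signal of 2650, 3201, 2822 and 2722 in the old and 2826, 2433, 2309 and 2979 in the young mice. The ages overlapped, and the log2 fold change was 0.12 (95% interval -0.14 to 0.37, adjusted p = 0.684 in limma). Its probe sets disagreed. The second brightest, with mean signals of 1777 in old and 1475 in young mice, stood at 0.27 with no overlap between ages. Its unadjusted p was 0.0367 in limma (adjusted p = 0.411 over all probe sets). A dim one, with mean signals of 7.1 and 9.9, stood at -0.57. Ddit3, the factor also called CHOP, had a signal of 500.2, 580, 737 and 509 in the old and 552, 558, 528 and 567 in the young mice. Old mouse 5 was the highest and old mouse 1 the lowest of all 8 mice, so the young mice lay within the range of the old. The log2 fold change of Ddit3 was 0.06 (95% interval -0.24 to 0.36, adjusted p = 0.877 in limma), and it turned to -0.061 without old mouse 5.

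Asns was at 0.18 and Ppp1r15a, which restores translation by reversing the action of Eif2ak3, at 0.10. Trib3, a pseudokinase that Ddit3 and Atf4 raise, was at -0.14, and Chac1, an enzyme that degrades glutathione, at -0.28 with a 95% interval from -1.08 to 0.53. Adjusted p-values of these 4 genes ran from 0.483 to 0.769 in limma. The intervals of Atf4 and Ddit3 include changes as large as that of Xbp1, so the data do not show that these genes were alike in both ages.

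The last 2 of the 38 genes are typical of plasma cells and had the largest fold changes. Mzb1, a cofactor of Hsp90b1 in antibody secretion, had a signal of 412, 430, 538 and 852 in the old and 338, 261, 284 and 292 in the young mice. Its log2 fold change was 0.87 (standard error 0.23, adjusted p = 0.155 in limma), a fold of 1.83, with old mouse 6 far above the other old mice. Prdm1, the factor Blimp-1 that directs plasma cell differentiation, had a signal of 102, 119, 106 and 187 in the old and 78, 58.5, 61.4 and 34.2 in the young mice. It was the gene past the thresholds named in the methods, at 1.16 on the log2 scale (standard error 0.29, adjusted p = 0.138 in limma), a fold of 2.24. It no longer passed the 2-fold threshold without old mouse 6 (0.97) or young mouse 8 (0.93). The ages did not overlap for either gene, and old mouse 6 was the highest for both.

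Whether these genes follow plasma cells over mice was read from Jchain, which encodes the joining chain of secreted antibody. Jchain had a signal of 3735, 8120, 6840 and 14016 in the old and 261, 481, 127 and 730 in the young mice, far apart between the ages, so no correlation over all 8 mice was computed. In limma with age as a term, the slope on Jchain was called in 0 of 38 genes at an adjusted p under 0.05 (0% of all genes). At an unadjusted p under 0.05, 0 slopes were positive (2.11% of all genes) and 1 was negative (2.12% of all genes), that of Asns at -0.13 per doubling of Jchain. Of the 38 slopes 21 were positive and 17 negative, with a median of 0.0066 and a range from -0.14 for Syvn1 to 0.15 for Mzb1.

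The slope of Xbp1 was -0.0016 log2 units per doubling of Jchain within an age (95% interval -0.14 to 0.14) and that of Hspa5 was 0.011 (-0.089 to 0.11). Mzb1 had a slope of 0.15 (-0.18 to 0.48), and Prdm1 of -0.051 (-0.50 to 0.40). Among 8 plasma cell markers other than Jchain, the slopes were positive in 6 and negative in 2, with a median of 0.25 and a range from -0.059 to 1.16, and 2 were positive at an unadjusted p under 0.05 in limma. These were Igha, the heavy chain of IgA, at 1.16 and Pou2af1, a coactivator of antibody genes, at 0.43. With 4 mice per age the slope intervals are wide. They are per doubling of Jchain, while Jchain differed by 4.48 log2 units between the ages. Per doubling of Jchain between the ages, the log2 fold change was 0.058 for Xbp1 and 0.11 for Hspa5, inside their slope intervals. For Manf it was 0.16, above its slope interval of -0.29 to 0.036. It also lay above the interval for Creld2, Hyou1, Pdia3, Pdia6, Syvn1 and Asns, and inside it for the others of the 38. These differences were not tested.

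**Figure D4:**
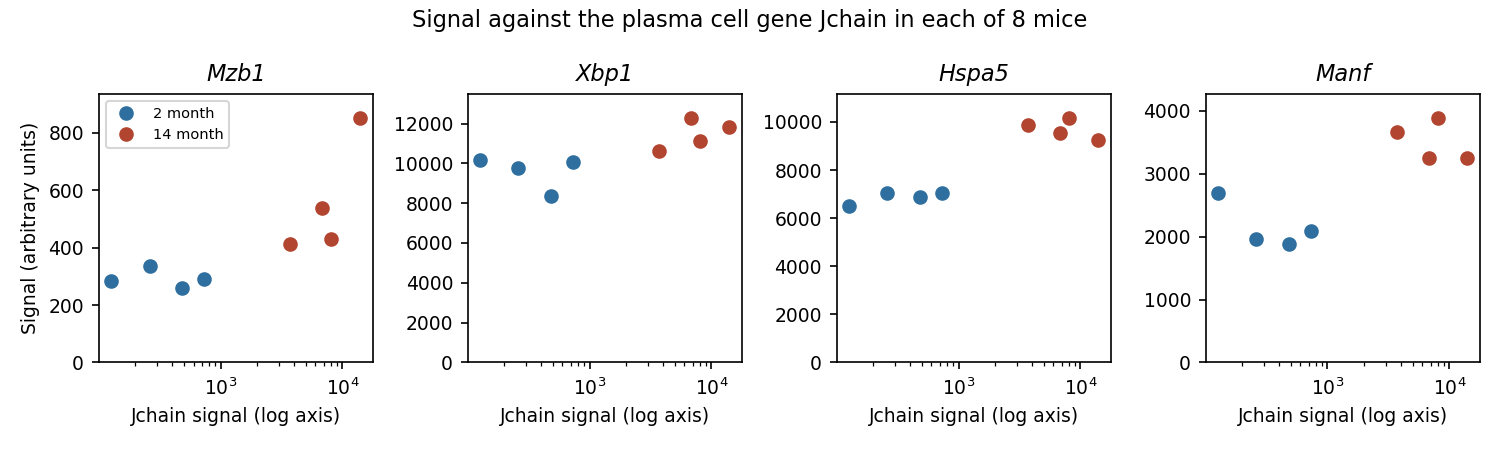
Signal in arbitrary units of Mzb1, Xbp1, Hspa5 and Manf against the Jchain signal on a log axis, 1 point per mouse, with young mice in blue and old mice in red. The ages separate along Jchain, and within an age Hspa5 and Xbp1 show slopes of 0.011 and -0.0016 log2 units per doubling of Jchain.

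Of 140 genes measured in 7 lists of other ER and stress genes, 11 were higher (7.86%) and 7 lower (5%) at an unadjusted p under 0.05, and their median log2 fold change was 0.003, against 0.15 for the 38 genes. All old signals exceeded all young signals in 12 of the 140 (8.57%), and the reverse held in 6 (4.29%). Other isomerases were higher in 2 and lower in 2 of 17, with Fkbp2 at 0.33, Pdia5 at 0.25, Fkbp9 at -0.28 and Ppic at -0.43. Other co-chaperones and glycan genes were higher in 1 of 15, other degradation genes higher in 1 and lower in 1 of 14, and ER to Golgi transport genes higher in 1 and lower in 1 of 18. Other translocon, signal peptidase and oligosaccharyltransferase genes were higher in 3 of 25 and lower in 0. These were the oligosaccharyltransferase subunit Magt1 at 0.31 and the signal peptidase subunits Spcs2 at 0.24 and Spcs3 at 0.22. All old signals exceeded all young signals in 6 of these 25 genes (24%, against 5.02% of all genes), these 3 among them, with the reverse in 0. Other regulators of the unfolded protein response passed in 0 of 17 at an unadjusted p under 0.05 in limma.

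Of 34 other targets of Atf4 and Ddit3, 3 were higher and 3 lower, close to the share over all genes, and their median was 0.07. Pmaip1, the death protein Noxa, rose by 1.01 on the log2 scale (adjusted p = 0.0445 in limma), and Atf3, a factor induced by many stresses and also an immediate early gene, was at 1.99 (adjusted p = 0.0609 in limma). Pck2, the mitochondrial form of phosphoenolpyruvate carboxykinase, was at -0.49 and Vldlr, a lipoprotein receptor, at -0.34.

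Within the chaperone arm, the 9 genes with the ERSE letters printed above had log2 fold changes from 0.10 to 0.53, all above 0, with a median of 0.24. The 14 genes whose windows lack the letters ranged from -0.26 to 0.47 with a median of 0.15, and 11 of them were above 0. At an unadjusted p under 0.05, 4 of the 9 and 4 of the 14 were higher (7.31% of all genes). In the other direction, 1 of the 14 was lower (7.28% of all genes), which is not unusual at that share. The ranges overlapped, and the difference was not tested. Manf, Hyou1, Derl1, Sec61a1 and Atf6 are in neither set for want of a promoter entry.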

How the data were processed

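Tracheal RNA of 4 old mice (14 months) and 4 young mice (2 months) was measured on 1 array per mouse, and groups were taken from the sample labels. The deposited intensity values are linear signals for 45101 probe sets, and the submitters' processing notes name Partek. The authors' methods name robust multichip analysis, which usually gives log2 values, whereas every deposited array has a mean of 500.002 with 2% left out at each end, so how the signals were made is not settled. The lowest signal was 0.106, and no detection call was given. Log2 signal was used with no floor, filter or further normalization after 64 control probe sets were removed. Of the probe sets left, 34945 carry a single symbol in the platform annotation, 932 carry several and 9160 have none, and a gene took its brightest probe set. Symbols of the 38 members were looked up in RefSeq and none changed.

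Ages were compared with limma 3.58.1 in R 4.3.3 (lmFit and eBayes, two-sided), with Benjamini-Hochberg adjustment over all 18193 genes. Slopes on Jchain were fitted in limma with age as a term over all other genes. The methods' two-way analysis has a second factor that is not named, so age was the only term. The steps were tested on simulated data. The number of arrays limits the precision: the median SD of log2 signal within an age was 0.12 over the 38 genes, 0.13 over the brighter genes and 0.37 over the dimmer. Promoters came from RefSeq GRCm38.p6. Genes, lists and tests were chosen with earlier results of these data known. Each of the 38 genes is reported, with the signal of every mouse for genes at an unadjusted p under 0.05, without overlap between ages, or named as regulators, and at most 4 genes with the smallest p are named of each other list beside its defining markers. The alternatives were to leave out each mouse, the mean of all probe sets, no _x_at or _s_at probe sets, quantile normalization, a floor of 32, the brighter genes, a trended and robust prior, an ordinary linear model without moderation, mouse numbers 1 to 4 against 5 to 8 as a term, Igha or the plasma cell list in place of Jchain, and every probe set tested singly, the last chosen after seeing the data.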

Additional observations from a re-analysis of the deposited data

Results flagged for a closer look

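Young mouse 4 stood apart for Canx, the lectin chaperone calnexin, with a signal of 6092 against 6921 to 7037 in the other young mice. The gap was 0.885 of the range of the young mice, above Dixon's 95% critical value for 4 samples. It was the only such sample in 76 groups examined. Chance gives about 1 in 20, so 1 in 76 is no more than chance would give. Without this mouse the log2 fold change of Canx was 0.047, against 0.10 with it.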

How the results depend on the processing

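No paired analysis was possible because the ages share no mouse number. Of the gene values under the alternatives, 606 kept their direction and side of the threshold. Hspa5 lost its call, which left 0 of 38 genes higher, without any 1 mouse (0 to 0), with the mean of all probe sets or with every probe set tested singly (adjusted p = 0.0861 in limma). The count was 6 with the brighter genes (34 of the 38 kept) or the trended and robust prior, adding Hyou1, Sdf2l1, Manf, Creld2 and Mzb1, and 3 with a floor of 32, adding Sdf2l1 and Creld2. Under these 3 settings 1 gene, Sel1l, was called lower, while calls over all genes went from 100 to 441, 487 and 252. At an unadjusted p, 19 were higher under the trended prior and 9 to 17 without 1 mouse, and 2 were lower with mouse numbers as a term. At the methods' thresholds 0 genes passed with the brighter genes, which leave out Prdm1, and 0 to 1 without 1 mouse (0 without old mouse 6 or young mouse 8). Slopes on Jchain at an unadjusted p numbered 2 with Igha, the brighter genes, the mean of probe sets, the ordinary model or the floor, 3 under the trended prior, and 0 to 3 without 1 mouse (0 without old mouse 1, old mouse 6 or young mouse 4, and 3 without young mouse 8). The chaperone arm median was 0.17 to 0.23 without 1 mouse, and the stress arm median was -0.058 with the mean of all probe sets.

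With that mean, signs turned for Edem2 (0.080), Sec61a1 (-0.00053), Eif2ak3 (-0.096), Atf4 (-0.061) and Ddit3 (-0.10). Without 1 mouse they turned for Ddit3 (-0.061 to 0.13), Chac1 (-0.52 to 0.017), Edem1 (-0.022 to 0.16), Edem2 (-0.079 to 0.0020) and P4hb (-0.025 to 0.051). The cause was not tested. Dim probe sets limit what can be seen, since their spread is the widest.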
